A study of Cricetulus griseus with 4 samples.

Results

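The cytosolic ribosomal proteins are the proteins that, with ribosomal RNA, build the large (60S) and small (40S) subunits of the ribosome. They were taken by gene name: symbols that begin with Rpl or Rps and a number, the stalk proteins Rplp0, Rplp1 and Rplp2, and Rpsa, with the S6 kinase genes left out. This gave 79 of 20754 genes, 47 named for the large and 32 for the small subunit. RNA was sequenced from CHO-K1, a subclone of an established Chinese hamster ovary cell line, after 24 hr with 25-hydroxyvitamin D3, with a selective SREBP inhibitor, with a selective VDR activator or with DMSO, the solvent control. There is a single library for each of the 4 treatments, and compound doses are not in the labels used here. All 4 cultures, DMSO included, were kept in 5% lipid-depleted serum with 50 µM compactin, a statin that blocks mevalonate synthesis, and 50 µM mevalonate. The series asks which activities of 25-hydroxyvitamin D3 go with the vitamin D receptor (VDR) and which with inhibition of SREBPs, the sterol-sensing transcription factors that switch on cholesterol and fatty acid synthesis.

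Ribosomal proteins are needed in fixed proportions to each other, and copies that find no place in a ribosome are degraded. Their mRNAs begin with a terminal oligopyrimidine (TOP) tract, through which mTOR and the RNA-binding protein LARP1 control their translation, and the genes are known targets of the transcription factor MYC. Some proteins also have a second gene, a paralog, whose product can take the same place in the ribosome.

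Of 47 known large-subunit proteins, 42 stood in the table under a symbol that the rule takes, as did 30 of 33 known small-subunit proteins. Another 7 members lie outside those lists. Rpl22l1, Rpl26l1, Rpl36al, Rpl3l, Rpl7l1 and Rps27l are paralogs or relatives of ribosomal proteins, and Rps19bp1 encodes a binding partner of RPS19 that is not itself a ribosomal protein. Rpl3l, a gene known from striated muscle, had 0 counts in all 4 libraries. Rpl26l1 stood at 1.13 CPM with 25-hydroxyvitamin D3, 0.302 CPM with the SREBP inhibitor, 0.450 CPM with the VDR activator and 0.276 CPM in DMSO, on 23, 7, 11 and 6 counts. CPM is the count of a gene per 1000000 of the adjusted library total. A gene counted as measured in a comparison with at least 1 CPM and 10 counts in 1 of its 2 libraries, which left 78 members for 25-hydroxyvitamin D3 against DMSO and 77 for each of the other treatments against DMSO.

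Library totals ranged between 21335614 and 23653262 counts, and 11426 to 11918 genes had at least 10 counts. With 1 library per treatment there is no replicate check and no test, and the differences describe these libraries. Intervals beside folds and shares are exact Clopper-Pearson 95% intervals, which cover counting error only. The line's markers Vim, Lgals1, S100a6 and Cav1 were present in every library, but their levels moved with the treatment: with 25-hydroxyvitamin D3 against DMSO they stood at 64.3 against 831 CPM for Lgals1, 104 against 821 for S100a6, 538 against 1430 for Cav1 and 787 against 1481 for Vim. Their part in the ribosomal protein values was not tested. Of 10 markers of other lineages in the table, none exceeded 1.47 CPM, and Ptprc and Cd3e were at 0. Mitochondrially encoded mRNAs made up 0.753% of counts with 25-hydroxyvitamin D3, 5.25% with the SREBP inhibitor, 5.93% with the VDR activator and 6.81% in DMSO.

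Ribosomal protein mRNAs together took a larger share of the counts in each treated library than in DMSO. The share was 5.20% with 25-hydroxyvitamin D3 (5.19 to 5.21), 5.05% with the SREBP inhibitor (5.04 to 5.06), 4.43% with the VDR activator (4.42 to 4.44) and 3.75% in DMSO (3.74 to 3.76). Summed CPM was 54436, 50636 and 42881 in the treated libraries, in the same order, against 36881 in DMSO. These sums were 1.48, 1.37 and 1.16 times the DMSO sum. As a share of nuclear-encoded counts alone the values were 5.24% with 25-hydroxyvitamin D3, 5.33% with the SREBP inhibitor, 4.71% with the VDR activator and 4.02% in DMSO. All 3 treated libraries stood above DMSO on both counts, whereas the order of 25-hydroxyvitamin D3 and the SREBP inhibitor turned round once mitochondrial mRNAs were left out of the total. In the scaling of single genes, factors computed without mitochondrial genes gave member medians against DMSO of 0.53, 0.46 and 0.21, the same as with them. Fewer cells and less RNA per cell cannot be told apart in such bulk libraries, and all values are relative to the rest of the library.

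The large and small subunits gave like values. Summed CPM of the large-subunit members was 1.31 times that of the small-subunit members with 25-hydroxyvitamin D3, 1.32 times with the SREBP inhibitor, 1.34 times with the VDR activator and 1.33 times in DMSO. Differences are given in log2(CPM + 1), in which changes of genes near 1 CPM come out too small. The median difference of 25-hydroxyvitamin D3 from DMSO was 0.56 for the large subunit (quartiles 0.35 and 0.73) and 0.51 for the small subunit (0.33 and 0.65). For the SREBP inhibitor the medians were 0.46 (0.37 and 0.51) and 0.45 (0.34 and 0.53). For the VDR activator they were 0.21 (0.18 and 0.28) and 0.19 (0.15 and 0.25). The median over all measured genes was 0.04, 0.01 and 0.01 in these comparisons. The 3 comparisons share the DMSO library, so a low DMSO value would lift all of them at once.

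Almost every member lay above DMSO. With 25-hydroxyvitamin D3 the difference was above 0 for 72 of 78 members, against 51.7% of all genes, with the SREBP inhibitor for 76 of 77, against 51.4%, and with the VDR activator for 77 of 77, against 52.1%. Scaled to nuclear-encoded totals, a choice made after seeing the data, the members above 0 were 64 with 25-hydroxyvitamin D3 (all genes 43.3%), 73 with the SREBP inhibitor (45.2%) and 77 with the VDR activator (54.0%). Among all members the quartiles were 0.34 and 0.71 with 25-hydroxyvitamin D3, and 0.16 and 0.27 with the VDR activator. All measured genes were also spread more widely with 25-hydroxyvitamin D3, with quartiles of -0.55 and 0.57, than with the VDR activator, with quartiles of -0.13 and 0.15.

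**Figure D1:**
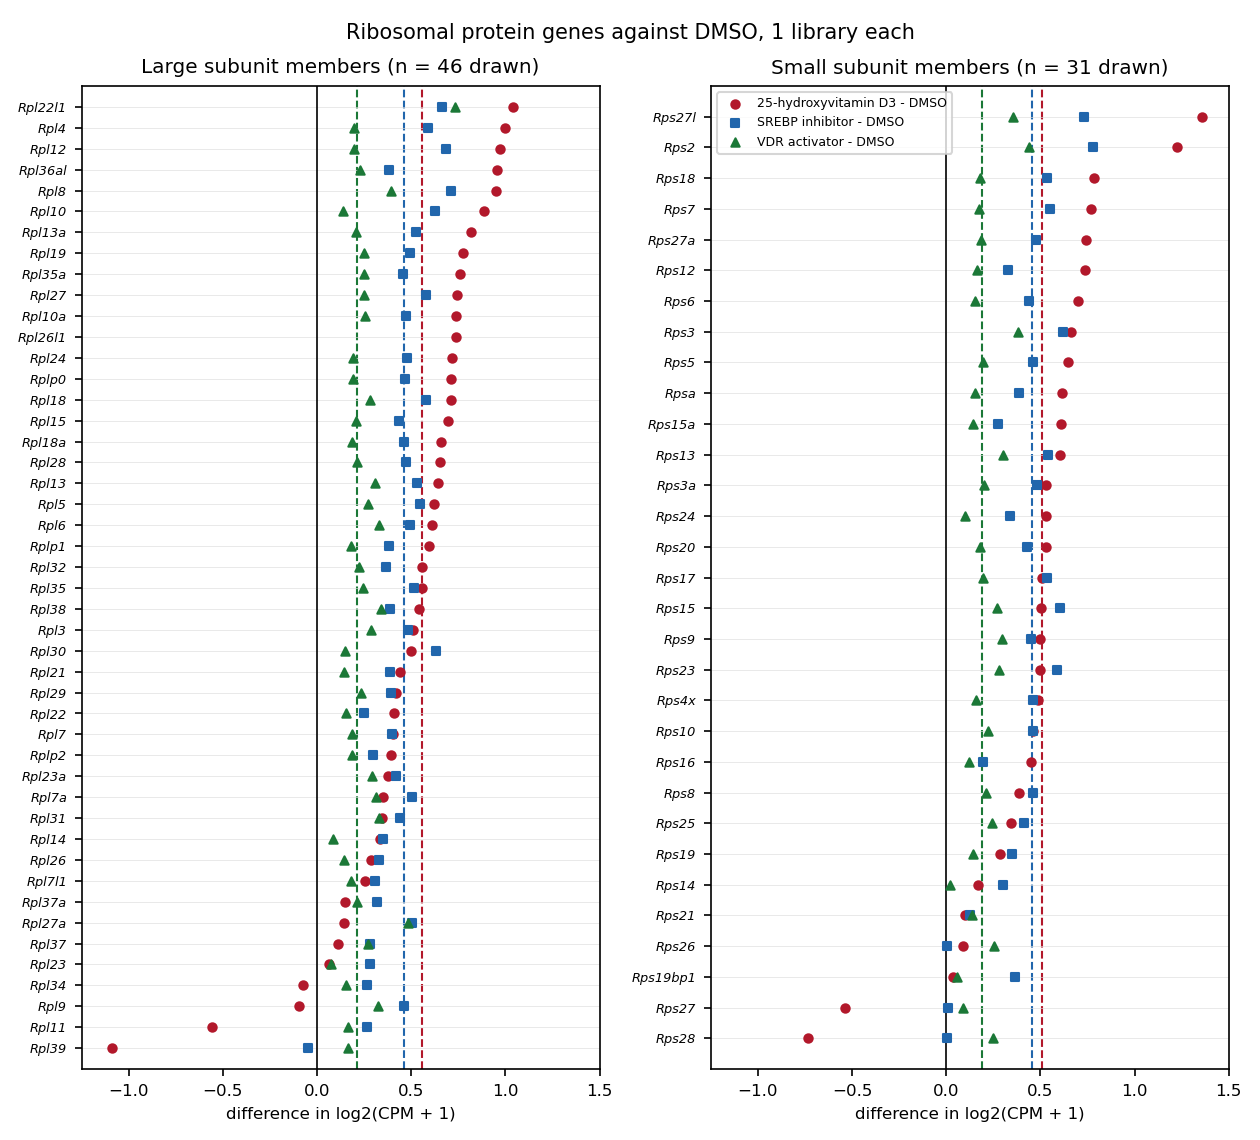
Difference in log2(CPM + 1) of each measured member from DMSO, large-subunit members on the left and small-subunit members on the right, ordered by the 25-hydroxyvitamin D3 value. Red circles, blue squares and green triangles are the 25-hydroxyvitamin D3, SREBP inhibitor and VDR activator libraries (1 each), and dashed lines are the subunit medians over all measured members, of which 1 of the small subunit is not drawn; the points at the bottom, such as Rpl39 at -1.09, lie left of 0 with 25-hydroxyvitamin D3.

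The shift was modest for single genes. With 25-hydroxyvitamin D3, 34 of 78 members were at least 1.5-fold higher than in DMSO (22 of the large and 12 of the small subunit), where 24.2% of all genes were. Only 2 members, Rpl39 and Rps28, were 1.5-fold lower, where 23.6% of all genes were. At 2-fold, Rps27l, Rps2 and Rpl22l1 (3 members) were higher and 1, Rpl39, was lower, against backgrounds of 11.6% and 12.2%. With the SREBP inhibitor 11 of 77 members were 1.5-fold higher, against 7.93% of all genes, and 0 were lower, against 6.2%. No member passed 2-fold with the SREBP inhibitor, against 1.95% of all genes higher and 1.4% lower. With the VDR activator 1 member, Rpl22l1, was 1.5-fold higher (none with a pseudocount of 5 in place of 1), against 2.44%, and 0 were lower, against 1.92%. None passed 2-fold with the VDR activator, where 0.184% of all genes were higher and 0.324% lower. These counts depend on the scaling: with nuclear-encoded totals 13 of 78 members were 1.5-fold higher with 25-hydroxyvitamin D3, where 17.9% of all genes were, and 4 were lower, where 30.3% were. With the SREBP inhibitor 5 of 77 were then higher, where 6.69% of all genes were. Under that scaling the counts of higher members are near the shares of all genes. In each comparison most members lay within 1.5-fold of DMSO.

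**Figure D2:**
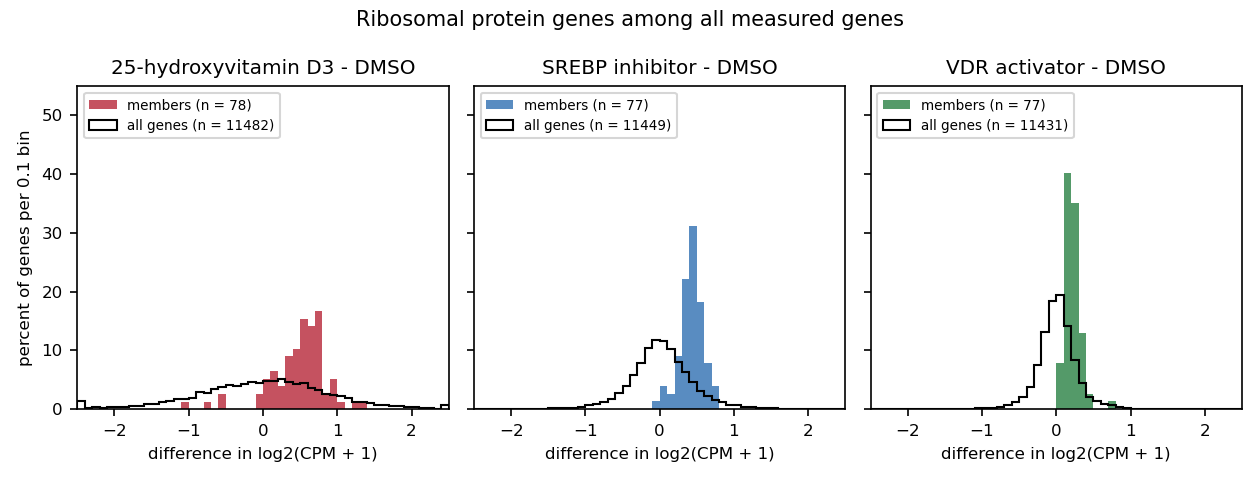
Distribution of the difference in log2(CPM + 1) from DMSO for the members and for all measured genes, 1 panel per treatment, as a percent of each set; values beyond the axis are counted in the end bins. The members' median lies at 0.53, 0.46 and 0.21 for 25-hydroxyvitamin D3, the SREBP inhibitor and the VDR activator, to the right of the all-gene medians of 0.04, 0.01 and 0.01.

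Among the 78 members measured in any library, 25-hydroxyvitamin D3 gave the highest CPM for 50, the SREBP inhibitor for 23, the VDR activator for 5 and DMSO for 0. DMSO gave the lowest CPM for 72 members, and 25-hydroxyvitamin D3 for the other 6. Over all genes the highest library was 25-hydroxyvitamin D3 for 43.4%, the SREBP inhibitor for 11.2%, the VDR activator for 16.6% and DMSO for 28.8%. The lowest was 25-hydroxyvitamin D3 for 41.3% and DMSO for 32.2%. The treatments were also set against each other. Against the SREBP inhibitor, 25-hydroxyvitamin D3 gave a median difference of 0.08, with 2 of 78 members 1.5-fold higher (all genes 13.8%) and 3 lower (16.1%); at 2-fold 0 were higher (3.15%) and 1, Rpl39, was lower (6.05%). This small median changed sign with the scaling, to -0.034 with the library totals behind the authors' FPKM and -0.049 with nuclear-encoded totals, so the order of these 2 libraries is not settled here. Against the VDR activator, 25-hydroxyvitamin D3 gave a median of 0.31, with 9 members 1.5-fold higher (20.5%) and 4 lower (21.1%), and at 2-fold 1 was higher (Rps27l, 8.54% of all genes) and 1 lower (Rpl39, 9.9%). The SREBP inhibitor against the VDR activator gave 0.24, with 71 of 77 members above 0 and 0 past 1.5-fold in either direction (5.04% higher and 4.41% lower) or past 2-fold (0.967% and 0.739%).

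A pair of comparisons that share no library could be set side by side. Across 77 members the difference of 25-hydroxyvitamin D3 from the VDR activator and that of the SREBP inhibitor from DMSO had a Pearson correlation of 0.70 and a Spearman correlation of 0.57. Over 11142 genes the values were 0.77 and 0.75, above those of the members. Genes within a library are not independent, and no p is given.

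The most abundant members by length-corrected level (FPKM, the authors' count scaled by gene length and library total) lay above DMSO in each treated library. Rpl23 of the large subunit did so under the main scaling but changed sign with 25-hydroxyvitamin D3 under other scalings. Rpsa, the laminin receptor homolog of the small subunit, stood at 4628 FPKM with 25-hydroxyvitamin D3, 4295 with the SREBP inhibitor, 3661 with the VDR activator and 3192 in DMSO. Rps18, at the head of the small subunit, stood at 3551, 3234 and 2543 FPKM with the 3 compounds, against 2184 in DMSO. Rplp0, the base of the stalk that recruits elongation factors, had 3271, 2761 and 2280 CPM, against 1995 in DMSO, and its stalk partner Rplp1 had 791, 682 and 592 CPM, against 524. Not every abundant member was highest with 25-hydroxyvitamin D3. Rpl7a, a large-subunit protein, had 1138 CPM with 25-hydroxyvitamin D3, 1268 with the SREBP inhibitor and 1109 with the VDR activator, against 893 in DMSO. Rpl23 had the narrowest range of these, with 788, 916 and 795 CPM in the treated libraries and 755 in DMSO. Rps4x and Rps12 lay 0.49 and 0.74 above DMSO on the log2 scale with 25-hydroxyvitamin D3, and Rpl19 lay 0.78 above.

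The paralogs or relatives Rps27l, Rpl22l1 and Rpl36al were among the members farthest above DMSO with 25-hydroxyvitamin D3 and are described below. The other members farthest above it belong to both subunits and to several of their working sites. Rps2, which lies near the mRNA entry of the small subunit, had 2426 CPM with 25-hydroxyvitamin D3, 1777 with the SREBP inhibitor and 1405 with the VDR activator, against 1035 in DMSO. The folds were 2.34 (2.31 to 2.38), 1.72 (1.69 to 1.74) and 1.36 (1.33 to 1.38). Rps2 was thus 1.23 above DMSO with 25-hydroxyvitamin D3, 0.72 beyond its subunit's median. Rpl4, which lines the tunnel through which the new protein leaves, had 2349, 1772 and 1345 CPM with the 3 compounds, against 1176 in DMSO, and was 2.00-fold higher with 25-hydroxyvitamin D3 (1.97 to 2.03), just short of the 2-fold rule on the log2(CPM + 1) scale. Rpl12, near the stalk base, had 496, 407 and 289 CPM, against 253 in DMSO. Rpl8, close to the centre where peptide bonds form, had 1010, 855 and 684 CPM, against 522 in DMSO. Rpl10, which joins the large subunit late and completes its active site, had 695, 581 and 413 CPM, against 376 in DMSO. In these members each treated library was above DMSO, and 25-hydroxyvitamin D3 was the highest. Rps3, at the mRNA entry of the small subunit, was among the highest of its subunit with the SREBP inhibitor and the VDR activator. It was 0.66, 0.62 and 0.38 above DMSO, so its values with 25-hydroxyvitamin D3 and the SREBP inhibitor differed little.

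With 25-hydroxyvitamin D3, 6 members lay 0.5 or more below their subunit's median on the log2 scale, and 2 lay as far above. Those below were Rpl39, Rpl11, Rpl9 and Rpl34 of the large and Rps28 and Rps27 of the small subunit, and they were the 6 members with their lowest CPM in that library. Just inside the limit lay Rpl23, at -0.496, and on the upper side Rpl22l1, at 0.48. All measured genes had quartiles of -0.55 and 0.57 around a median of 0.04, both more than 0.5 from that median. Departures of this size were thus more common over all genes than among the members.

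Rpl39, a very small protein of the exit tunnel, had 167 CPM with 25-hydroxyvitamin D3, 344 with the SREBP inhibitor and 399 with the VDR activator, against 356 in DMSO. The 25-hydroxyvitamin D3 library stood apart from the other 3, 2.13-fold lower than DMSO (2.05 to 2.22) and 2.06-fold lower than the SREBP inhibitor (1.98 to 2.15). Rps28, which contacts mRNA near the exit site, had 35.6, 60.02 and 71.5 CPM in the treated libraries, against 59.9 in DMSO. It was 1.68-fold lower with 25-hydroxyvitamin D3 (1.54 to 1.84), and with the SREBP inhibitor its difference from DMSO was 0.00. Rps27, a zinc finger protein of the small subunit, had 83.1 CPM with 25-hydroxyvitamin D3 and 122, 129 and 121 CPM with the SREBP inhibitor, the VDR activator and in DMSO, and was 1.46-fold lower with 25-hydroxyvitamin D3 than in DMSO (1.37 to 1.55). The values of these 3 members with the SREBP inhibitor and in DMSO differed by at most 0.05 on the log2 scale, below the 0.45 to 0.46 of the subunit medians.

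Rows described as the same protein under another identifier held under 1% of the counts of Rpl39, Rps28, Rpl11, Rpl9, Rpl34 and Rps2 in DMSO, and 2.52% of those of Rps27. Rpl11 assembles with Rpl5 and 5S rRNA into a particle that, when ribosome assembly stalls, can bind MDM2 and stabilise p53. Rpl11 had 408 CPM with 25-hydroxyvitamin D3, 724 with the SREBP inhibitor and 674 with the VDR activator, against 602 in DMSO. It was 1.48-fold lower with 25-hydroxyvitamin D3 (1.44 to 1.52) and 1.20-fold higher with the SREBP inhibitor (1.18 to 1.23). Its partner Rpl5, named after its values were seen, had 843, 800 and 661 CPM, against 548 in DMSO, and was 1.54-fold higher with 25-hydroxyvitamin D3 (1.504 to 1.58). Rows described as the same protein held 53.3% of the Rpl5 counts in DMSO, and with them added Rpl5 was 0.59 above DMSO. The 2 partners therefore stood on opposite sides of DMSO with 25-hydroxyvitamin D3 and on the same side with the SREBP inhibitor. Rpl9 had 293, 432 and 393 CPM with the 3 compounds, against 314 in DMSO, and Rpl34 had 283, 359 and 332 CPM, against 299. With 25-hydroxyvitamin D3 they lay at -0.10 and -0.08 against DMSO, and with the other compounds both lay above it.

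**Figure D3:**
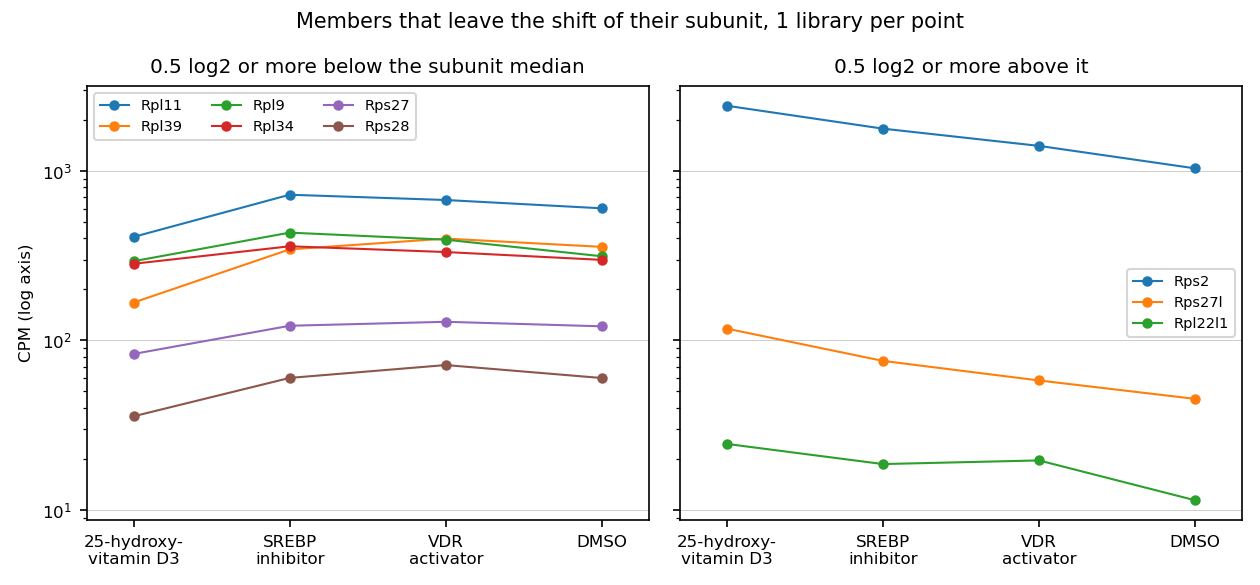
CPM on a log axis in the 4 libraries (1 each) of the members that lay 0.5 or more from their subunit's median in a comparison with DMSO, below it on the left and above it on the right; lines only join the points of a gene. The 25-hydroxyvitamin D3 point is the lowest of its gene in the left panel (Rpl39 at 167 CPM against 356 in DMSO) and the highest in the right panel (Rps2 at 2426 against 1035).

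Members of both short and longer implied length lay below the shift. This length comes from the authors' counts and FPKM and was not checked against the mRNAs. It was 374 nt for Rpl39, 328 nt for Rps28 and 339 nt for Rps27, but 639 nt for Rpl11 and 839 nt for Rpl9. The 18 members under 400 nt had a median difference of 0.52 with 25-hydroxyvitamin D3, against 0.51 for the 26 members of 400 to 600 nt, 0.46 for the 26 of 600 to 1000 nt and 0.73 for the 8 of 1000 to 2000 nt. Other nuclear-encoded genes of at least 50 CPM in a library had medians of 0.08, -0.03, 0.38 and 0.37 in the same 4 length classes. These were 26, 74, 276 and 1090 genes, and the shorter classes thus lay lower among them. A part of length in the member values was not tested. Rps18, at 344 nt, lay 0.78 above DMSO. Across 77 members the implied length and the difference had a Pearson correlation of 0.18 and a Spearman correlation of 0.12, given as a description.

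With the SREBP inhibitor only Rpl39 left its subunit's shift, at -0.51 from the median, and Rps28, Rps26 and Rps27 were just inside the limit at -0.45, -0.45 and -0.44. Rps26, which contacts mRNA upstream of the start codon, had 250 CPM with 25-hydroxyvitamin D3, 236 with the SREBP inhibitor and 280 with the VDR activator, against 235 in DMSO. Its sign with 25-hydroxyvitamin D3 and with the SREBP inhibitor turned with the scaling. With the VDR activator only Rpl22l1 left the shift, 0.52 above the median. The quartiles of all measured genes were -0.22 and 0.25 with the SREBP inhibitor and -0.13 and 0.15 with the VDR activator. Rpl27a had 151, 195 and 192 CPM, against 137 in DMSO, and so stood at 0.14, 0.51 and 0.48, lowest of the treated libraries with 25-hydroxyvitamin D3. Rps14 had 503, 551 and 453 CPM, against 447 in DMSO, and Rpl14 had 843, 851 and 710 CPM, against 669. Rps19bp1 had 15.3, 19.5 and 15.6 CPM, against 14.9 in DMSO. The signs of Rpl27a, Rps14 and Rps19bp1 with 25-hydroxyvitamin D3 turned with nuclear-encoded totals.

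Ratios of a paralog to its partner within a library need no scaling, since both are counted in the same total. Rps27l, a paralog that p53 is known to induce in human cells, had 117 CPM with 25-hydroxyvitamin D3, 75.7 with the SREBP inhibitor and 58.0 with the VDR activator, against 45.1 in DMSO. Its fold over DMSO with 25-hydroxyvitamin D3 was 2.60 (2.41 to 2.80). Rps27 was lower in the same library, so the Rps27l to Rps27 count ratio was 1.41 with 25-hydroxyvitamin D3 (1.33 to 1.503), 0.620 with the SREBP inhibitor (0.584 to 0.659), 0.451 with the VDR activator (0.423 to 0.480) and 0.373 in DMSO (0.346 to 0.402). Per length, by FPKM, the ratio was 1.36, 0.596 and 0.433 with the compounds, against 0.359 in DMSO. The intervals of the 4 libraries did not overlap, and the paralog was the more abundant mRNA with 25-hydroxyvitamin D3 only. The change of ratio had parts from both genes.

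**Figure D4:**
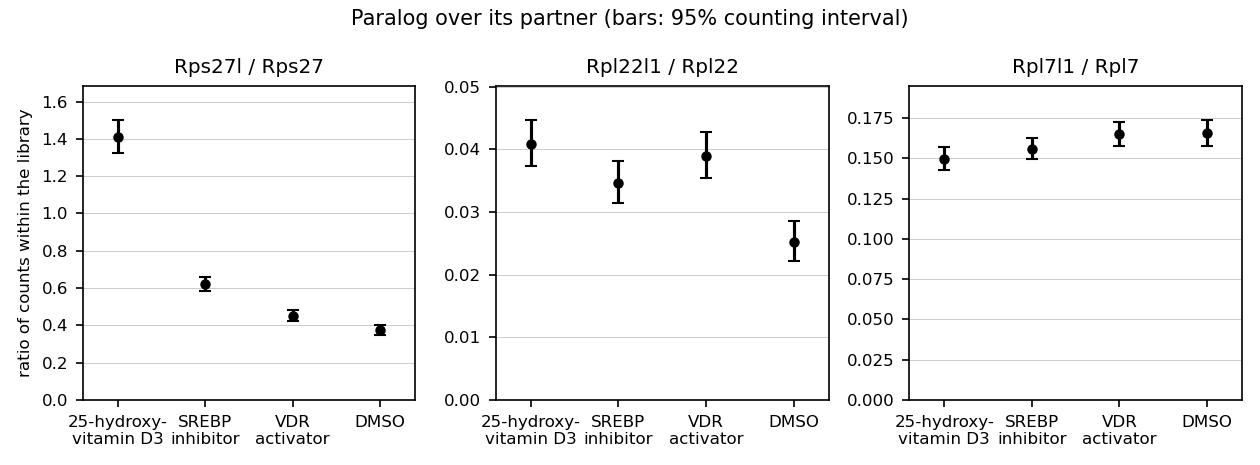
Count ratio of a paralog to its partner in each library (1 each), on axes that start at 0, with exact Clopper-Pearson 95% intervals that cover counting error only. The Rps27l to Rps27 ratio is 1.41 with 25-hydroxyvitamin D3 and 0.373 in DMSO, with no overlap of the intervals.

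Rpl22l1, a paralog of Rpl22 whose level is held down by Rpl22 in mouse, had 24.5, 18.6 and 19.6 CPM with the 3 compounds, against 11.4 in DMSO. It was 2.15-fold higher with 25-hydroxyvitamin D3 (1.84 to 2.52), 1.64-fold with the SREBP inhibitor (1.40 to 1.92) and 1.72-fold with the VDR activator (1.47 to 2.01). Rpl22 itself had 598, 536 and 502 CPM, against 451 in DMSO. The Rpl22l1 to Rpl22 ratio was 0.0409 with 25-hydroxyvitamin D3, 0.0347 with the SREBP inhibitor, 0.0390 with the VDR activator and 0.0252 in DMSO, and the intervals of the 3 treated libraries lay above that of DMSO. Rpl7l1, which acts in large-subunit assembly, had a ratio to Rpl7 of 0.150, 0.156 and 0.165, against 0.166 in DMSO, and the intervals with 25-hydroxyvitamin D3 (0.143 to 0.157) and in DMSO (0.158 to 0.174) did not overlap. Rpl36al, a relative of Rpl36a, had 168, 113 and 101 CPM, against 86.2 in DMSO, and was 1.95-fold higher with 25-hydroxyvitamin D3 (1.84 to 2.06). The partner Rpl36a is not analysed here. Paralogs share sequence, and how reads shared between them were assigned is not given in the sources used here.

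Rack1 and Fau, ribosomal proteins whose gene names the rule does not take, also lay above DMSO in each treated library. Rack1, a scaffold on the small subunit, had 1128, 995 and 742 CPM in the treated libraries, against 644 in DMSO. Fau, which encodes a ubiquitin-like protein fused to a small-subunit protein, had 69.2, 82.3 and 73.5 CPM, against 57.6 in DMSO.

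Several lists of genes around the ribosome, chosen with earlier results of these data known, were set beside the members. Ribosome biogenesis factors, which make rRNA and assemble subunits, lay farthest from DMSO: of 26 genes, 21 were 2-fold higher with 25-hydroxyvitamin D3, 11 with the SREBP inhibitor and 0 with the VDR activator, where 11.6%, 1.95% and 0.184% of all genes were. Their medians were 1.65, 0.96 and 0.33. None of the 26 was 2-fold lower. Rrp9, a protein of the U3 particle that cuts rRNA, was 10.3-fold higher with 25-hydroxyvitamin D3, 3.87-fold with the SREBP inhibitor and 1.71-fold with the VDR activator. Nop56, a core protein of box C/D particles, was 5.80-fold and 3.19-fold higher with 25-hydroxyvitamin D3 and the SREBP inhibitor, and the nucleolar protein gene Ncl had 2432, 1244 and 640 CPM, against 501 in DMSO. The members stood lower, at 0.53, 0.46 and 0.21 with the same compounds, with a smaller gap between 25-hydroxyvitamin D3 and the SREBP inhibitor.

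A list of other mRNAs with a TOP tract, of translation factors and of further proteins such as Npm1, Naca and Hnrnpa1, had medians of 0.90, 0.49 and 0.23 over 18 genes. Of these 6, 2 and 0 were 2-fold higher with the 3 compounds, against the same 11.6%, 1.95% and 0.184% of all genes. Eef1a1, the elongation factor that delivers tRNA, had 11103, 10132 and 7993 CPM, against 6707 in DMSO, and Npm1, a nucleolar chaperone, was 5.33-fold, 2.71-fold and 1.47-fold higher. Chaperones and carriers of single ribosomal proteins had medians of 0.93, 0.53 and 0.10 over 7 genes, of which Rps19bp1 is also a member. Tsr2, which carries RPS26, was 2.01-fold higher with 25-hydroxyvitamin D3. The regulators of TOP mRNAs differed among themselves: Larp1 was 3.00-fold and Eif4ebp1, an mTOR target that blocks cap-dependent translation, 4.60-fold higher with 25-hydroxyvitamin D3, while Mtor was 1.15-fold higher. With 25-hydroxyvitamin D3, 6 of the 10 lay above DMSO, where 51.7% of all genes did. The 4 below DMSO included the S6 kinase genes Rps6kb1 and Rps6kb2 (76.7 and 23.5 CPM, against 89.0 and 35.1 CPM in DMSO). The others were Eif4ebp2 (286 against 422 CPM) and Tia1 (39.3 against 57.9 CPM). The list medians were 0.36, 0.04 and 0.07 over 10 genes. Among 9 transcription factors the medians were 0.21, 0.05 and 0.11. With 25-hydroxyvitamin D3, 7 of the 9 lay above DMSO, and 3 were 2-fold higher, where 11.6% of all genes were. These were Myc, Sp1 (2.37-fold) and Hinfp (2.20-fold), while Mxd1 stood at 5.30 CPM, against 11.3 in DMSO. Myc alone was 2-fold higher with the SREBP inhibitor (all genes 1.95%) and with the VDR activator (0.184%). Myc stood out with 171.6, 83.5 and 42.4 CPM, against 20.3 in DMSO, on the row that RefSeq names Myc; another row of the same description was not used. Mitochondrial ribosomal proteins, which build a separate ribosome, had medians of 0.63, 0.33 and 0.17 over 76 measured genes, so they too lay above the all-gene medians.

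**Figure D5:**
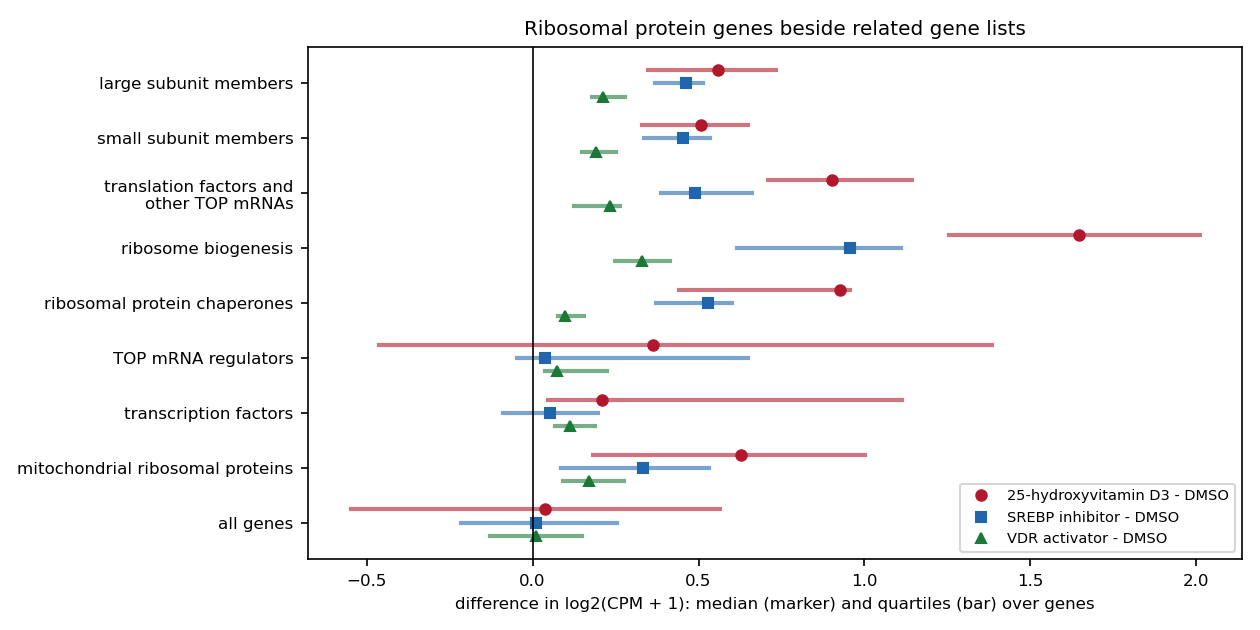
Median difference in log2(CPM + 1) from DMSO of the members by subunit, of the gene lists around the ribosome and of all genes, 1 library per treatment, with bars for the quartiles over genes. Ribosome biogenesis factors lie farthest to the right, at 1.65 with 25-hydroxyvitamin D3, and the large-subunit members lie at 0.56, 0.46 and 0.21.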

How the data were processed

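Per the labels' protocols, poly(A) RNA libraries were made from the treated cells. The authors deposited estimated counts and FPKM values per gene; 15.2 to 16.2% of the rows in a library were not whole numbers within 0.01. TopHat2 (version 2) and bcl2fastq (version 1) appear in the submitters' processing notes, without their roles; which counter, build and annotation were used is not given in the sources used here. Estimated counts were rounded, rows of a gene name that differ only in a trailing number were summed, and CPM used TMM library sizes over all genes (edgeR 4.0.16, R 4.3.3), in Python 3.11.15 elsewhere. One CPM corresponded to 20.4 to 24.4 counts. Differences are of log2(CPM + 1), so no count test was used, and each group has 1 library. Named genes were those 0.5 or more from their subunit's median, the 3 highest and lowest per subunit and comparison, the 5 with the highest FPKM per subunit in DMSO, and the paralogs. Naca, Npm1 and Myc were read from rows under a LOC identifier, found by description or RefSeq gene ID. Members, lists and rules were chosen with earlier results of these data known. Alternatives were scalings, the pseudocount, the minimum, the known members only and rows described as the same protein. Some genes are not reported here by name. The calculations were tested on simulated data.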

Additional observations from a re-analysis of the deposited data

How the results depend on the processing

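No paired analysis was possible because each group has 1 library. All medians below are differences in log2(CPM + 1); the large-subunit and small-subunit medians against DMSO stayed above 0 for all 3 compounds under every alternative run, though single members did not. With total count scaling the large-subunit and small-subunit medians were 0.47 and 0.42 for 25-hydroxyvitamin D3 against DMSO, 0.43 and 0.43 for the SREBP inhibitor and 0.24 and 0.21 for the VDR activator, 4 members were 1.5-fold lower with 25-hydroxyvitamin D3, and the medians between treatments were 0.017 for 25-hydroxyvitamin D3 over the SREBP inhibitor, 0.20 for 25-hydroxyvitamin D3 over the VDR activator, and 0.18 with the SREBP inhibitor over the VDR activator. With DESeq2 size factors (DESeq2 1.42.0) they were 0.56 and 0.51 for 25-hydroxyvitamin D3, 0.44 and 0.43 for the SREBP inhibitor, and 0.10, 0.32 and 0.22 between treatments. TMM without mitochondrial genes gave 0.56 for the large subunit with 25-hydroxyvitamin D3 and 0.085 and 0.31 for 25-hydroxyvitamin D3 against the SREBP inhibitor and VDR activator. FPKM library totals gave 0.48 and 0.42, 0.49 and 0.48, and 0.25 and 0.23 against DMSO, and -0.034, 0.19 and 0.23 between treatments. With 25-hydroxyvitamin D3, 23 members were then 1.5-fold higher (all genes 21.2%) and 4 lower (26.5%). Nuclear total scaling, chosen after seeing the data, moved the all-gene median for 25-hydroxyvitamin D3 against DMSO to -0.14. It gave 0.38 and 0.33, 0.41 and 0.40, and 0.22 and 0.20 against DMSO, and -0.049, 0.12 and 0.17 between treatments. With 25-hydroxyvitamin D3, 13 members were 1.5-fold higher (all genes 17.9%) and 4 lower (30.3%), and with the SREBP inhibitor 5 were higher (6.69%). A pseudocount of 5 gave 0.53 for the large subunit with 25-hydroxyvitamin D3, 0.45 for the small subunit with the SREBP inhibitor, 0.30 for 25-hydroxyvitamin D3 against the VDR activator and 0 members higher with the VDR activator. The 77 known members alone gave 0.52 for the large subunit with 25-hydroxyvitamin D3, 0.20 for the small subunit with the VDR activator, 0 members higher with it, and 0.063 and 0.30 for 25-hydroxyvitamin D3 against the SREBP inhibitor and VDR activator. No minimum gave 0.45 for the large subunit with the SREBP inhibitor and 0.23 between it and the VDR activator. Rows described as the same protein, added, gave 0.45 and 0.21 for the large subunit with the SREBP inhibitor and VDR activator, and 0.091 and 0.32 for 25-hydroxyvitamin D3 against them. Leaving out the 6 members with over 25% of counts in such rows (added later) gave 0.072 and 0.30 for the same pair. Leaving out the 9 members off the shift (added later) gave 0.59 for the large subunit with 25-hydroxyvitamin D3, 0 members lower, 0 higher with the VDR activator, and 0.096 and 0.33 between treatments. Of 97 differences of 33 named members, 8 changed sign under an alternative, none over 0.17 in size: Rpl23, Rpl27a, Rps14, Rps19bp1 and Rps26 with 25-hydroxyvitamin D3, and Rps26, Rps27 and Rps28 with the SREBP inhibitor. The cause was not tested.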

Other observations

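A further 115 rows carry no symbol and are described as a ribosomal protein of the 40S or 60S subunit, and 47 of them had at least 10 counts in a library. The 43 measured rows had median differences from DMSO of 0.42 with 25-hydroxyvitamin D3, 0.36 with the SREBP inhibitor and 0.11 with the VDR activator. Above 0 lay 38, 39 and 31 of them, where 51.7%, 51.4% and 52.1% of all genes did. These rows held 88.4% of the counts described as Rps6 in DMSO, 80.4% of those of Rpl29 and 40.3% of those of Rplp1, and under 1% for 61 members. Adding them to the member moved no difference by more than 0.11.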
